A study of Mus musculus with 8 samples.

Results

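Single-exon protein-coding genes were taken from the count table as the protein-coding rows on the 19 autosomes and the X chromosome whose exon field held 1 interval, leaving out histone genes of the *Hist* clusters, *Gspt2*, *Jun*, *Junb* and *Jund*. The rule gave 2098 genes of the 48709 in the table, beside 19339 multi-exon protein-coding genes, and 297 of the 2098 reached at least 10 counts in at least 4 of the 8 tumors. The counts came from bulk lung tumors of the *K* model, mice with a Cre-activated oncogene on a mixed B6J/129S4vJae background. All tumors were started by a lentivirus, LentiCRISPRv2Cre, that delivers Cre, Cas9 and a guide RNA into the lung, with a guide against *GFP* in the 4 *K-Ctrl* tumors and a guide against *Setd2*, the gene of the enzyme that trimethylates histone H3 at lysine-36, in the 4 *K-Setd2KO* tumors. Every cell that the virus transduced can carry its own edit, the tumor pieces also hold host cells, and the labels give neither the age of the mice nor whether 2 tumors shared a mouse, so p-values measure only the spread between these tumors. The labels name the tissue as lung adenocarcinoma. The study's text describes the *K-Setd2KO* tumors as low grade adenomas and states that control and knockout tumors were matched for stage by histology.

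Most mammalian protein-coding genes are transcribed with introns that are removed while RNA polymerase II elongates, and SETD2 travels with the elongating polymerase and places H3K36me3 over gene bodies, where the mark is known to be denser over spliced genes. Intronless genes arise mainly by retrotransposition of a spliced mRNA, as in retrogenes, or belong to old families with compact genes, such as many receptors coupled to G proteins, clustered protocadherins, SOX, forkhead and C/EBP transcription factors. They skip splicing, and many are short-lived or tissue-restricted transcripts. The comparison here addresses whether the mRNA levels of this class differed between the genotypes and how they compared with genes that have introns.

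The exon field of the table did not always mean that a gene lacks introns. The table lists exons after merging all annotated transcripts of a gene, and 0 of its rows held intervals that touched or overlapped, so a spliced gene with annotated transcripts that read across all its introns also has 1 interval. In the GENCODE M21 annotation, every transcript of 1157 of the 2098 genes has 1 exon, and 941 have at least 1 spliced transcript. Of the 297 tested genes these numbers were 233 and 64, and the coding sequence itself was split over several exons in 37 of the 64. Of the 22 genes called below, *Cebpa*, *Kctd12*, *Rgs1*, *Sox12*, *Rpl22l1* and *Mt1* are among the 64. The 64 included *Rpl9*, *Rps13*, *Gpx1*, *Dynll1*, *Rgs1*, *Cxcl1*, *Cxcl2*, *Cxcl3* and *Cxcl10*, and 21 of the 64 have an annotated intron-retaining transcript. The results are therefore given for the whole class and for the 233 genes with 1 exon in every transcript, which are called intronless below.

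Sequences show where the counts of some genes of the class are uncertain. Of the 297 genes, 43 shared at least 10% of their 50-base stretches with transcripts of a gene elsewhere in the genome, 31 shared at least 50%, and 16 are tagged as retrogenes in M21. *Gm10282*, a retrogene of *Hmgn2*, is the example among the genes that passed the test, and its first 120 coding bases (chr8:72305062-72305181, minus strand, GRCm38) are shown because they are identical to those of its multi-exon source, which lies on chromosome 4. Capitals mark the bases on each side of the exon junctions of *Hmgn2*, of which 3 fall in this stretch and 5 in the whole coding sequence.
Gm10282: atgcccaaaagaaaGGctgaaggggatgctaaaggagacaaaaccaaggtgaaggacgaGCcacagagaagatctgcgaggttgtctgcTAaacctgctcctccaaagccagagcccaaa
All 270 coding bases matched (100% identity), and 74.0% of the 50-base stretches of the *Gm10282* row occurred in another gene. How reads that fit both genes were counted is not given in the sources used here.

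Promoters of the called genes with the smallest p-values in each direction that have an entry in the RefSeq promoter table are shown because the results below turn on these genes. Each is 300 bases of GRCm38.p6, from 250 bases before the RefSeq start to 50 bases after it, and capitals mark the TATA box letters TATAAA, the promoter box known as CCAAT and the GC box letters GGGCGG on either strand.
Cebpa: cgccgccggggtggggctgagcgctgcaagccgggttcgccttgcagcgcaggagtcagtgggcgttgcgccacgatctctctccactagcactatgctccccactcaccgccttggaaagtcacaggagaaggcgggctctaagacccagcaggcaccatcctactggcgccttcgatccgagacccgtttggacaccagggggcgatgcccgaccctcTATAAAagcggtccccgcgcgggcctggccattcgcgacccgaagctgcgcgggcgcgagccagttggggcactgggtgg
Exoc8: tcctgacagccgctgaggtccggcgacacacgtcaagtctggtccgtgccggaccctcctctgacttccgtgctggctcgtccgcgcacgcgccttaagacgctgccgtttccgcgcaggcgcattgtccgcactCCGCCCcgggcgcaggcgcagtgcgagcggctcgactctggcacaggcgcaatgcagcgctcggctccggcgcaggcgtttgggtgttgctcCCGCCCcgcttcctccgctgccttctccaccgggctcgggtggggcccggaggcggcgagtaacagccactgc
Kcna3: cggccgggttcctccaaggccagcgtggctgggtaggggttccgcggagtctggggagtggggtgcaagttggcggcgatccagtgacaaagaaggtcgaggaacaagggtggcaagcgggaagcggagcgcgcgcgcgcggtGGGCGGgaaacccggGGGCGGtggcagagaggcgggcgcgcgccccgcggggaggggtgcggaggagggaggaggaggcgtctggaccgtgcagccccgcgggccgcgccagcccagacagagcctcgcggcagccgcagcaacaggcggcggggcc
Kctd12: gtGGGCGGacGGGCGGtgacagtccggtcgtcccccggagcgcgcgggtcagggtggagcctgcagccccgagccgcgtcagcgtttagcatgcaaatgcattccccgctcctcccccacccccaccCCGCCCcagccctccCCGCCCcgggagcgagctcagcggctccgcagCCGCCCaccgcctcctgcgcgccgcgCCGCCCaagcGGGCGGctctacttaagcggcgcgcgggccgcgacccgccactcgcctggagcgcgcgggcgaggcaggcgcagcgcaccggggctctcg
The windows lie at chr7:35119043-35119342 on the plus strand (*Cebpa*), chr8:124897656-124897955 on the minus strand (*Exoc8*), chr3:107035912-107036211 on the plus strand (*Kcna3*) and chr14:102982588-102982887 on the minus strand (*Kctd12*). The *Cebpa* window holds 1 TATAAA and no GGGCGG, the *Exoc8* and *Kcna3* windows hold 2 GGGCGG each, and the *Kctd12* window holds 7. Among the 32851 promoters of the RefSeq table, which include those of genes not tested here, 13.6% hold TATAAA, 37.4% CCAAT and 35.7% GGGCGG. Among promoters of tested genes, GGGCGG was in 61.0% of the single-exon and 63.8% of the multi-exon ones. TATAAA was in 9.74% and 7.19% of them and CCAAT in 37.4% and 38.2%. Only 195 of the 297 genes (65.7%) matched an entry, against 79.0% of the multi-exon genes. The classes are thus covered unequally, and no conclusion about promoter content is drawn from these shares.

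*Setd2* itself, a multi-exon gene, was measured at 153, 138, 132 and 138 CPM (counts scaled to the size of the library with TMM factors) in *K-Ctrl*, beside 145, 121, 124 and 153 CPM in *K-Setd2KO*. The groups overlapped and the gene did not pass (log2 fold change, log2FC, -0.05 ± 0.12 SE, adjusted p = 0.824 in edgeR's quasi-likelihood test with Benjamini-Hochberg adjustment), and a small frameshifting edit need not change a gene's mRNA count, so this does not check the labels. The shallowest library was *K-Setd2KO* replicate 4 (5806599 counts) and the deepest *K-Ctrl* replicate 3 (21290402), and 3 counts corresponded to between 0.141 and 0.517 CPM. By *Xist* and Y-linked genes, 1 *K-Ctrl* tumor and 3 *K-Setd2KO* tumors came from females, so sex was unequal between the groups.

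Most of the class had few or no counts in these tumors. Of the 2098 genes, 1428 had 0 counts in all 8 tumors, 373 had some counts but stayed under the filter, and 297 (14.2%) were tested, against 67.8% of the multi-exon genes. Olfactory receptors, the odorant sensors of the nose, made up 816 of the 2098 and had 1 tested gene (*Olfr99*). The 202 vomeronasal, taste and trace amine receptors, the 17 interferons, the 5 POU factors and the 2 connexins had 0 tested genes, and the 54 skin barrier proteins had 1. Of the 297 tested genes 212 belong to none of the listed families. Among the listed families, tested genes made up 15 of 23 protocadherins, 11 of 44 receptors coupled to G proteins, 9 of 12 ribosomal and translation genes, 7 of 16 TSPY-like, NAP and MAGE genes, 6 of 7 glycan enzymes and 3 of 3 C/EBP factors.

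Single-exon genes took under 1% of the protein-coding counts in every tumor. Their share of protein-coding counts was 0.846%, 0.725%, 0.810% and 0.736% in *K-Ctrl* replicates 1 to 4 (mean 0.780% ± 0.058 SD, n = 4). In *K-Setd2KO* it was 0.787%, 0.817%, 0.796% and 0.843% (mean 0.811% ± 0.025 SD, n = 4), and the groups overlapped. Intronless genes alone took 0.512% ± 0.057 (SD, n = 4) in *K-Ctrl* and 0.498% ± 0.030 (SD, n = 4) in *K-Setd2KO*, also overlapping. After each library was thinned to the 5806599 counts of the shallowest, 234 to 251 single-exon genes reached 10 counts per *K-Ctrl* tumor and 225 to 228 per *K-Setd2KO* tumor (unthinned means 306 and 272 genes). These ranges did not overlap, and the same was true of multi-exon genes, with 12148 to 12527 per *K-Ctrl* tumor and 11740 to 11951 per *K-Setd2KO* tumor.

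The genes of the class with the highest mean CPM were *Cebpa*, *Rpl9*, *Purb*, *Gpx1* and *Pcbp1*. Per kilobase of exon, *Cebpa* stood at 169 CPM, *Gpx1*, a glutathione peroxidase, at 165, *Pcbp1*, a poly(C)-binding RNA-binding protein, at 114, *Rpl9*, a protein of the large ribosomal subunit, at 88.9 and *Purb*, a purine-rich element-binding protein, at 30.4. Of the 5, *Cebpa* passed the test, and the other 4 had log2 fold changes between -0.03 ± 0.15 (SE, *Purb*) and 0.40 ± 0.19 (SE, *Pcbp1*, adjusted p = 0.203). *Pcbp1* is a retrotransposed relative of *Pcbp2* and had 172 to 298 CPM in *K-Setd2KO* against 159 to 189 CPM in *K-Ctrl*.

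In the test of *K-Setd2KO* against *K-Ctrl*, 22 of the 297 single-exon genes passed an adjusted p of 0.05, which was 7.41% of those tested. Of the multi-exon genes 13.4% passed, and of all 15115 genes tested 12.4%. Of the 22, 10 were higher and 12 lower in *K-Setd2KO*, 3.37% and 4.04% of the class, beside 4.84% higher and 7.56% lower among all genes tested and 5.06% higher and 8.38% lower among multi-exon genes. The CPM of the groups did not overlap for 50 of the 297 (16.8%), against 20.1% of all genes tested. With DESeq2, the tool the study used, 56 of the 297 passed (18.9%), against 21% of all genes tested. Below, passed and called refer to edgeR unless DESeq2 is named, and of the genes given below as not passing in edgeR, *Cebpb*, *Cldn5*, *Lpar6*, *Rps13*, *Eif3j2*, *Tspyl5*, *B3gnt9*, *Zxdb* and *Cxcl10* passed in DESeq2. The single-exon share was under the multi-exon share in each of the 17 fits run, at 2.69% to 18.9% against 5.47% to 22.2%. No test of this difference in shares was made, since genes are not replicates.

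The single-exon genes differed from multi-exon genes in level, length and precision. Their median level was 6.45 CPM against 25.3 CPM for multi-exon genes, their median exon length 2614 against 4176 bases, and their median SE of the log2 fold change 0.36 against 0.22. Among genes of 50 CPM or more, 6 of 40 single-exon genes passed (15%, with 5 higher and 1 lower), against 13.1% of multi-exon genes. Below that level the single-exon share was the smaller in each of the 3 groups of genes compared, at 8.54% against 14.9% between 10 and 50 CPM, 5.77% against 13.8% between 2 and 10 CPM and 4.23% against 6.52% under 2 CPM. The median SE of the log2 fold change was 0.23 against 0.20, 0.36 against 0.36 and 0.49 against 0.61 in these 3 ranges. At an unadjusted p under 0.05, the shares were 30.0% of single-exon and 31% of multi-exon genes. The part that level and length have in the difference was not tested.

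**Figure D1:**
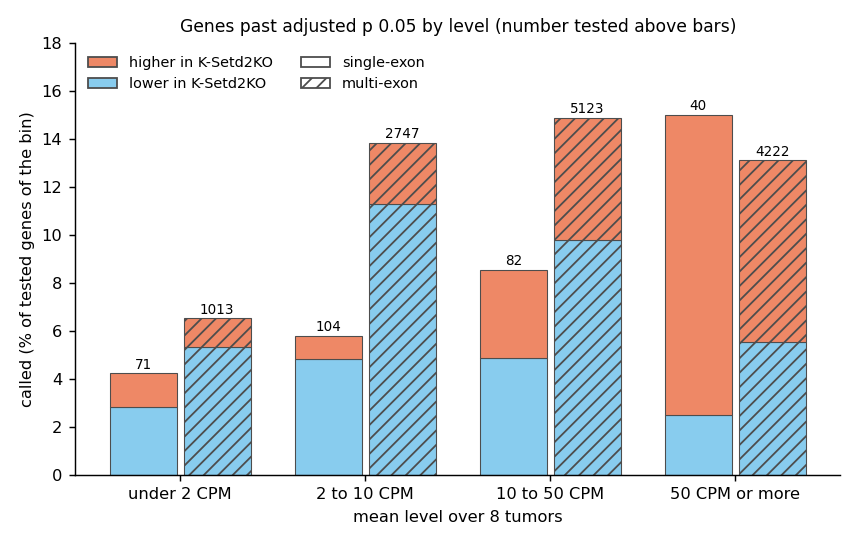
Percent of tested genes past an adjusted p of 0.05 (vertical axis) in 4 ranges of mean CPM over the 8 tumors (horizontal axis), for single-exon (plain bars) and multi-exon (hatched bars) genes, split into higher and lower in K-Setd2KO, with the number tested above each bar. The single-exon bar is the shorter in the 3 lower ranges and the taller at 50 CPM or more (15% against 13.1%).

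Pooled over all levels, the median of the class lay near that of all genes. The log2FC had a median of 0.06 over the 297 genes (quartiles -0.44 and 0.42), 0.02 over multi-exon genes (quartiles -0.39 and 0.28) and 0.03 over all genes tested. The pooled difference between single-exon and multi-exon genes was 0.04, and its sign turned in some of the alternatives below. Between single tumors of a group the same difference had a pooled SD of 0.044. That SD is not the error of a difference between group means, which was not tested. Intronless genes had a median of 0.05 with 6 higher and 10 lower of 233 (6.87% called), and the 64 genes with a spliced transcript a median of 0.09 with 4 higher and 2 lower (9.38% called), both beside 12.4% of all genes tested. Among multi-exon genes the percent called rose with the number of exon blocks, from 11% of the 1189 genes with 2 or 3 blocks to 16.2% of the 3566 with 16 or more, while their median level rose from 13.3 to 42.4 CPM.

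**Figure D2:**
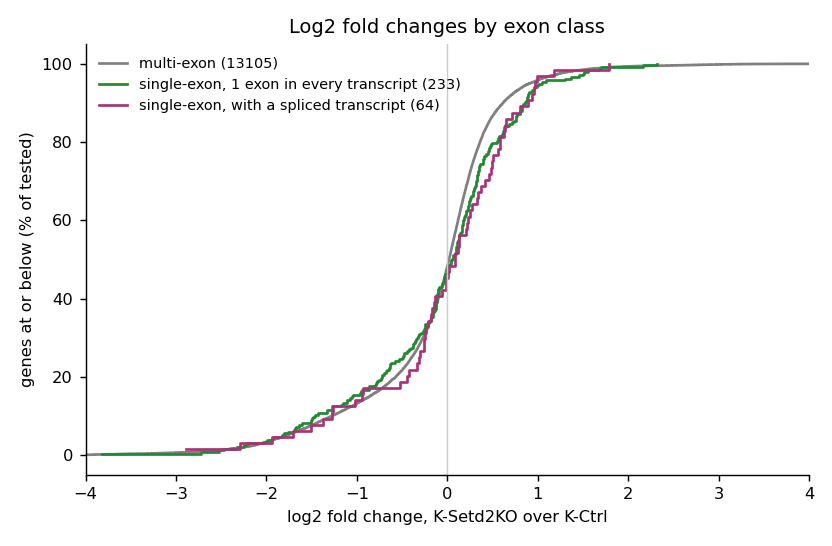
Cumulative percent of tested genes (vertical axis) at or below each log2 fold change of K-Setd2KO over K-Ctrl (horizontal axis) for 13105 multi-exon genes, 233 intronless single-exon genes and 64 single-exon genes with a spliced transcript. The 3 curves cross 50% close to 0, at 0.02, 0.05 and 0.09.

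The genes that rose included the transcription factor genes *Foxq1*, *Cebpa* and *Sox12*. *Foxq1*, a forkhead transcription factor (chr13:31558324-31560976, plus strand, GRCm38), had 3.39, 7.48, 6.6 and 7.58 CPM in *K-Ctrl* and 39.5, 26.1, 26.8 and 31.7 CPM in *K-Setd2KO*. Every *K-Setd2KO* tumor was above every *K-Ctrl* tumor, with means of 31 ± 6.2 and 6.26 ± 1.97 CPM (both SD over 4 tumors, log2FC 2.31 ± 0.27 SE, edgeR adjusted p = 0.00565), the smallest p of the class. *A530084C06Rik*, a predicted gene on the opposite strand (chr13:31556134-31559333) whose exon overlaps that of *Foxq1* in part, rose as well (log2FC 1.46 ± 0.34 SE, edgeR adjusted p = 0.0256). Its counts were 7 to 16 per *K-Ctrl* tumor and 13 to 37 per *K-Setd2KO* tumor, 7.87% to 18.2% and 4.81% to 7.33% of the *Foxq1* counts of the same tumors. The kit marks strand, but the setting used in counting is not given in the sources used here, so reads of this pair cannot be told apart with certainty.

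*Cebpa*, a transcription factor of lung epithelial and myeloid differentiation whose promoter is shown above, had 286, 265, 314 and 384 CPM in *K-Ctrl* and 575, 579.9, 538 and 626 CPM in *K-Setd2KO*. The groups were far apart relative to their spread (log2FC 0.89 ± 0.14 SE, edgeR adjusted p = 0.00847). Neither relative passed in edgeR (*Cebpb* did in DESeq2), with log2FCs of -1.27 ± 0.39 (SE, adjusted p = 0.0639) for *Cebpb* and -0.24 ± 0.40 (SE, adjusted p = 0.722) for *Cebpd*, and the difference between the 3 genes was not tested. On chromosome 6, where *Pcbp1* lies, the median log2 fold change was 0.32 over 660 multi-exon genes and 0.49 over the 11 single-exon genes tested, against 0.03 over all genes. The median deviation of the multi-exon genes there from each gene's mean log2 level was -0.14 to -0.13 in the *K-Ctrl* tumors and 0.22, -0.20, 0.22 and 0.27 in *K-Setd2KO* replicates 1 to 4, so replicate 2 was the exception. For the single-exon genes there it was -0.23 to -0.07 in the *K-Ctrl* tumors and 0.15, 0.19, 0.14 and 0.51 in *K-Setd2KO* replicates 1 to 4, with no such exception. The part of the chromosome in the values of its single-exon genes was not tested.

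*Exoc8*, a subunit of the exocyst that tethers secretory vesicles, rose by a smaller fold, with 42.2, 47.0, 43.7 and 42.4 CPM in *K-Ctrl* and 72.8, 60.7, 63.8 and 71.6 CPM in *K-Setd2KO* (log2FC 0.62 ± 0.11 SE, edgeR adjusted p = 0.0115). *Sox12*, a SOX transcription factor, had 13.5, 14.3, 15.1 and 23.4 against 26.9, 29.8, 33.3 and 40.1 CPM (log2FC 0.97 ± 0.21 SE, edgeR adjusted p = 0.0213). Neither gene has an exon that overlaps another row of the table. *Rpl22l1*, a paralog of the ribosomal protein gene *Rpl22*, lay at 14.2 to 21.6 CPM across *K-Ctrl* tumors and at 28.7 to 50.9 CPM across *K-Setd2KO* tumors (log2FC 0.96 ± 0.23 SE, edgeR adjusted p = 0.0271).

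*Mt1*, the metal-binding metallothionein 1, had 54.8, 49.6, 81.2 and 60.7 CPM in *K-Ctrl* and 86.9, 210.4, 171 and 90.7 CPM in *K-Setd2KO* (log2FC 1.18 ± 0.31 SE, edgeR adjusted p = 0.0379). *H1f0*, the replication-independent linker histone, had 129.8, 90.9, 86.2 and 126 against 144, 267, 248 and 151 CPM (log2FC 0.91 ± 0.24 SE, edgeR adjusted p = 0.0414). In both genes the *K-Setd2KO* tumors fell into a higher pair, replicates 2 and 3, and a lower pair, replicates 1 and 4, close to the highest *K-Ctrl* tumor. Both lost the call in 6 of the 8 fits that left out 1 tumor. The predicted gene *2310039H08Rik* was another of the 10, at 1.34 to 2.5 against 3.77 to 8.49 CPM (log2FC 1.51 ± 0.36 SE, edgeR adjusted p = 0.0291).

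**Figure D3:**
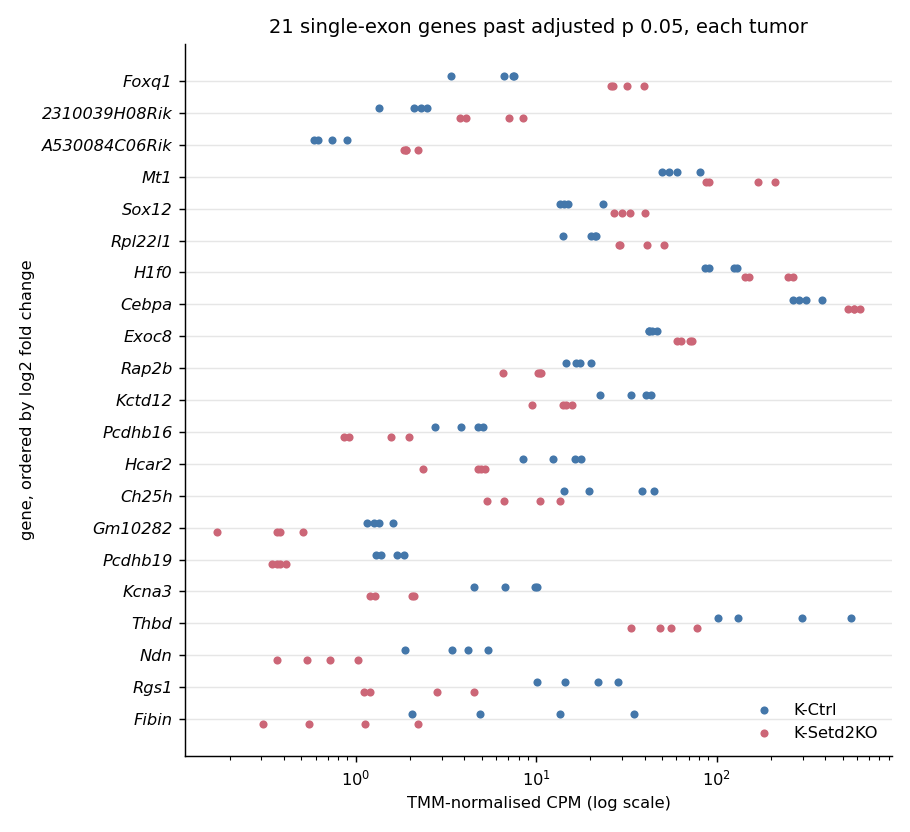
CPM of each tumor on a log scale (horizontal axis) for 21 of the 22 single-exon genes past an adjusted p of 0.05 (vertical axis, ordered by log2 fold change), with K-Ctrl and K-Setd2KO in separate colors. The groups do not overlap for 20 of the 21 genes drawn, the exception being Fibin.

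Several genes that fell are known from leukocytes and endothelium. *Kcna3*, the voltage-gated potassium channel of T lymphocytes, had 6.71, 9.92, 10.1 and 4.55 CPM in *K-Ctrl* and 1.28, 2.06, 2.12 and 1.20 CPM in *K-Setd2KO* (log2FC -2.21 ± 0.36 SE, edgeR adjusted p = 0.00867). *Rgs1*, a regulator of G-protein signaling in lymphocytes that has 1 merged exon interval but spliced transcripts, had 14.5, 28.4, 21.9 and 10.2 against 4.52, 2.83, 1.11 and 1.20 CPM (log2FC -2.89 ± 0.50 SE, edgeR adjusted p = 0.0111). *Hcar2*, the niacin and beta-hydroxybutyrate receptor of myeloid cells and adipocytes, had 12.4, 16.5, 17.7 and 8.47 against 5.24, 2.37, 4.79 and 4.97 CPM (log2FC -1.67 ± 0.33 SE, edgeR adjusted p = 0.0148). In each of these genes the lowest *K-Ctrl* tumor was replicate 4 and still above every *K-Setd2KO* tumor.

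*Thbd*, which encodes thrombomodulin, the anticoagulant receptor of endothelium, had 559, 102, 297 and 132 CPM in *K-Ctrl* and 78.2, 55.7, 33.6 and 48.8 CPM in *K-Setd2KO* (log2FC -2.33 ± 0.54 SE, edgeR adjusted p = 0.0264). Without *K-Ctrl* replicate 1, the highest tumor, the log2FC of *Thbd* was -1.71 (edgeR adjusted p = 0.045). *Ch25h*, the interferon-induced cholesterol 25-hydroxylase, had 14.3, 44.8, 38.5 and 19.7 against 13.6, 6.65, 5.34 and 10.5 CPM (log2FC -1.70 ± 0.42 SE, edgeR adjusted p = 0.0341), with *K-Ctrl* replicate 1 just above the highest *K-Setd2KO* tumor. *Cldn5*, the claudin of endothelial tight junctions, was the claudin with the smallest p and did not pass (44.4 ± 32.1 against 11.6 ± 5.71 CPM, both SD over 4 tumors, log2FC -1.92 ± 0.58 SE, edgeR adjusted p = 0.0604).

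Markers of several other cell types also had lower values in *K-Setd2KO*, while neutrophil and epithelial markers mostly had higher ones. None of the 22 called genes is in a marker list. All 6 leukocyte markers had lower values in *K-Setd2KO* and 5 passed, beside the 7.56% of all genes tested that were called lower and the 4.84% called higher, with summed levels of 964 to 1735 CPM in *K-Ctrl* and 514 to 743 CPM in *K-Setd2KO*. Of 6 macrophage markers 4 were called lower (461 to 1479 against 209.9 to 367 CPM), of 6 T cell markers 1 (44.1 to 109 against 7.92 to 34.8 CPM), and of 7 endothelial markers 2 (523 to 1887 against 201 to 537 CPM). No marker of these lists was at 0. Fewer cells of a type and less RNA per cell cannot be told apart in bulk tumors, and the part of the cell mixture in the values of *Kcna3*, *Rgs1*, *Hcar2*, *Thbd* and *Ch25h* was not tested. Among epithelial markers 2 of 5 were called higher (1783 to 2759 against 2521 to 3064 CPM), and the alveolar type 2 markers, at 39476 to 58922 against 47288 to 65835 CPM, had 1 called higher and 1 lower of 6. Of the other lists, 0 of 5 B cell, 0 of 5 neutrophil, 0 of 4 smooth muscle, 0 of 3 club and 0 of 4 ciliated markers passed in edgeR, 1 of 5 fibroblast, 1 of 5 alveolar type 1 and 2 of 6 proliferation markers were called lower, and 0 of the 5 sex-linked genes passed. By direction, 4 of 5 neutrophil markers had positive log2 fold changes (summed 15.9 to 20.3 CPM in *K-Ctrl*, 13.8 to 56.0 CPM in *K-Setd2KO*). All 6 proliferation markers had negative ones.

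The other genes that fell have varied roles. *Kctd12*, an auxiliary subunit of GABA-B receptors, had 43.5, 40.8, 33.5 and 22.7 CPM in *K-Ctrl* and 15.8, 14.1, 9.49 and 14.7 CPM in *K-Setd2KO* (log2FC -1.38 ± 0.24 SE, edgeR adjusted p = 0.0108). *Ndn*, the imprinted gene of necdin, had 5.42, 4.2, 3.42 and 1.87 against 0.719, 0.535, 0.368 and 1.03 CPM (log2FC -2.52 ± 0.46 SE, edgeR adjusted p = 0.0125), which rested on 31 counts in the 4 *K-Setd2KO* tumors together. *Rap2b*, a small GTPase of the RAP family, had 16.6, 20.2, 17.6 and 14.7 against 10.6, 6.57, 10.5 and 10.3 CPM (log2FC -0.86 ± 0.20 SE, edgeR adjusted p = 0.0275). *Fibin*, a secreted protein first described in fin buds, had the largest SE of the 22 called genes, with 34.7, 4.87, 13.5 and 2.05 against 1.13, 0.306, 0.553 and 2.23 CPM, so that the groups overlapped (log2FC -3.81 ± 0.95 SE, edgeR adjusted p = 0.0342). Without *K-Ctrl* replicate 1 the log2FC of *Fibin* was -2.79 and the call was lost (edgeR adjusted p = 0.0708).

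The retrogene *Gm10282*, whose sequence is shown above, had 1.35, 1.26, 1.62 and 1.16 CPM in *K-Ctrl* and 0.513, 0.382, 0.368 and 0.171 CPM in *K-Setd2KO* (log2FC -1.80 ± 0.42 SE, edgeR adjusted p = 0.0255). The 4 *K-Ctrl* tumors together gave 85 counts and the 4 *K-Setd2KO* tumors 20, beside a source gene, *Hmgn2*, a nucleosome-binding HMGN protein, at a mean of 39.0 CPM that did not pass (log2FC -0.22, adjusted p = 0.678). Reads could be exchanged between the 2 rows, so the value of *Gm10282* is uncertain. Over the 43 genes with at least 10% shared stretches, 1 passed (this gene, lower, 2.33%), against 10 higher and 11 lower among the other 254 (8.27%), beside 12.4% of all genes tested, and the median log2 fold changes were 0.19 and 0.02. Of the 16 tagged retrogenes the same 1 passed, and the median log2FC was 0.07.

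Most copies were counted far below their closest relative. *Sap18b* (98.8% shared stretches) had a mean of 1.69 CPM beside 77.1 CPM for *Sap18*, and *Tpm3-rs7* (69.4%) had 11.8 CPM beside 719 CPM for *Tpm3*. *Eif3j2* (90.8%), a copy of the translation initiation factor gene *Eif3j1*, had 16.7 beside 62.7 CPM, and the pair went opposite ways without passing (log2 fold changes 0.57, adjusted p = 0.0846, and -0.32, adjusted p = 0.166). The heat shock genes *Hspa1a* and *Hspa1b*, near-identical neighbours that are both single-exon, had log2FCs of -0.63 and -0.66, and neither passed.

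**Figure D4:**
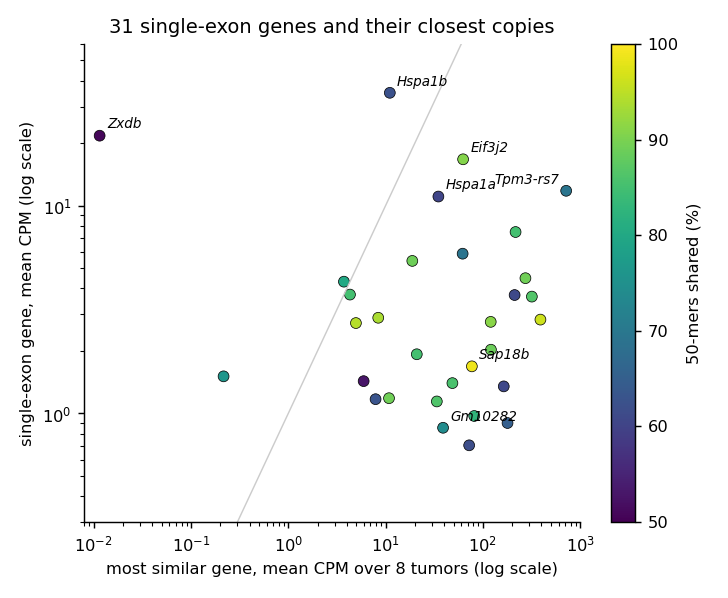
Mean CPM over the 8 tumors of the 31 single-exon genes that share at least 50% of their 50-base stretches with another gene (vertical axis, log scale) against the mean CPM of the most similar gene (horizontal axis, log scale), colored by the percent shared. The line marks equal levels, and most points, Gm10282 (0.853 against 39.0 CPM) among them, lie to its right.

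The protocadherins had lower values in *K-Setd2KO* throughout, although few passed singly. The 15 tested members are all *Pcdhb* genes, clustered cell-adhesion receptors that give neurons and some epithelia a surface identity and that each have 1 large exon. All 15 had negative log2 fold changes, from -2.0 to -0.30 with a median of -1.26, whereas 52.7% of all genes tested had positive ones. Among low-level genes the median was -0.45 (multi-exon) and -0.26 (single-exon) under 2 CPM, and -0.19 and 0.04 from 2 to 10 CPM. Of the 15, 2 passed in edgeR, beside the 7.56% of all genes tested that were called lower. In DESeq2 4 passed, beside 21% of all genes tested, called in either direction. *Pcdhb19* had 1.29, 1.85, 1.39 and 1.69 CPM in *K-Ctrl* and 0.411, 0.382, 0.368 and 0.343 CPM in *K-Setd2KO* (log2FC -2.0 ± 0.37 SE, edgeR adjusted p = 0.0130). *Pcdhb16* had 5.05, 4.79, 3.83 and 2.76 against 0.924, 1.99, 1.57 and 0.857 CPM (log2FC -1.60 ± 0.38 SE, edgeR adjusted p = 0.0281). Both lie within the spans of 3 predicted genes on their own strand, *Gm42416*, *Gm37013* and *Gm37388*, which had 0 CPM in both groups.

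The summed level of the 15 *Pcdhb* genes was 42.1, 34, 34.7 and 32.2 CPM in *K-Ctrl* (35.8 ± 4.37 SD, n = 4) and 19.3, 15.7, 11.1 and 20.9 CPM in *K-Setd2KO* (16.7 ± 4.38 SD, n = 4). The sums of the groups did not overlap, and singly the CPM of 5 of the 15 genes did not, beside 20.1% of all genes tested. The genes are neighbours with related sequences, sharing 2.02% to 8.75% of their 50-base stretches with other genes, and are not independent of each other. The 24 multi-exon protocadherins tested had a median log2FC of -0.31, with 2 called higher and 1 lower. Most marker lists also had mainly negative log2 fold changes. These were the endothelial (7 of 7), leukocyte (6 of 6), T cell (6 of 6), macrophage (5 of 6) and B cell (4 of 5) lists. The fibroblast (4 of 5), smooth muscle (4 of 4), ciliated (4 of 4), club (2 of 3), alveolar type 1 (4 of 5) and proliferation (6 of 6) lists did likewise. Neutrophil and epithelial markers were mainly positive (4 of 5 each). The part of these cell types in the *Pcdhb* values was not tested. The *Pcdhb19* value rested on 19 counts over the 4 *K-Setd2KO* tumors.

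**Figure D5:**
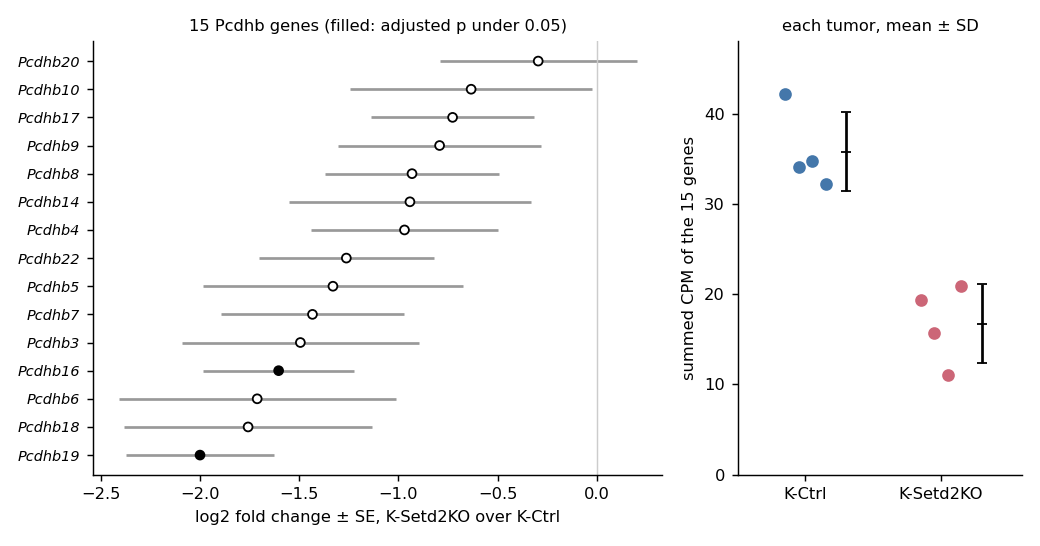
Left, log2 fold change of K-Setd2KO over K-Ctrl with its SE (horizontal axis) for the 15 Pcdhb genes (vertical axis), filled where the adjusted p was under 0.05. Right, summed CPM of the 15 genes in each tumor with the mean and SD of each group (vertical axis). All 15 points lie below 0, and the K-Ctrl tumors sit between 32.2 and 42.1 CPM and the K-Setd2KO tumors between 11.1 and 20.9 CPM.

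Receptors coupled to G proteins had 11 tested members, of which *Hcar2* was called lower, beside 7.56% of all genes tested, and 4 had positive log2 fold changes (median -0.26). The 88 multi-exon receptors of the list had a median of -0.73, with 1 called higher and 17 lower. The closest to the threshold after *Hcar2* were the lysophosphatidic acid receptor *Lpar6* (log2FC 0.60 ± 0.21 SE, adjusted p = 0.0875) and the sphingosine-1-phosphate receptor of lymphocytes *S1pr4* (-1.33 ± 0.47 SE, adjusted p = 0.0929). The beta-adrenergic receptor *Adrb1* and the Frizzled receptors *Fzd1*, *Fzd2*, *Fzd7* and *Fzd8* did not pass. *Hcar1*, the lactate receptor next to *Hcar2*, had a log2 fold change of 0.02 ± 0.52 (SE).

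Of the 9 ribosomal and translation genes tested, 8 had positive log2 fold changes (median 0.35), beside 52.7% of all genes tested, and 1, *Rpl22l1*, passed, beside 4.84% called higher. The 150 multi-exon genes of the same list had a median of 0.26 with 10 higher and 1 lower. *Rps13*, a protein of the small subunit that has spliced transcripts, had 72.5, 78.9, 77.6 and 83.7 CPM in *K-Ctrl* and 91.0, 111, 104 and 89.1 CPM in *K-Setd2KO*. Its groups did not overlap, but it did not pass (log2FC 0.34 ± 0.11 SE, adjusted p = 0.0803). Of the 9, *Eif3j2*, *Rps27rt*, *Rpl36a-ps1*, *Rpl9-ps6* and *Rpl10-ps3* share at least 50% of their 50-base stretches with another gene, so their values are not independent of those genes.

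In the other families 0 or 1 gene passed, beside 4.84% of all genes tested called higher and 7.56% called lower. The small GTPases (4 tested) and BTB and kelch proteins (4) had 1 called lower each, *Rap2b* and *Kctd12*, and the potassium channels (2) had *Kcna3*. The SOX factors (3), C/EBP factors (3) and forkhead factors (2) had 1 called higher each, *Sox12*, *Cebpa* and *Foxq1*. None passed in edgeR among the claudins (4), the chaperones (4), the TSPY-like, NAP and MAGE genes (7), the glycan enzymes (6), the zinc finger factors (3), the immediate early response genes (3), the leucine-rich repeat membrane proteins (2) and the basic helix-loop-helix factors (1). Their smallest p-values belonged to *Cldn5*, *Dnajb3* (a DNAJ cochaperone, log2 fold change 1.05 ± 0.40 SE, adjusted p = 0.117), *Tspyl5* (0.94 ± 0.32 SE, adjusted p = 0.0852), *B3gnt9* (a glycosyltransferase, -1.51 ± 0.48 SE, adjusted p = 0.0698), *Zxdb* (0.80 ± 0.28 SE, adjusted p = 0.0966) and *Ier2* (0.31 ± 0.24 SE, adjusted p = 0.425). The 212 tested genes outside the listed families had 6 higher and 6 lower, and their log2FC had a median of 0.09.

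The chemokines of the class varied widely between tumors of a group. *Cxcl1*, a neutrophil attractant, had 1.66, 32.8, 21.7 and 5.17 CPM in *K-Ctrl* and 45.8, 3.29, 5.8 and 67.7 CPM in *K-Setd2KO*, so that the groups overlapped widely (log2FC 0.99 ± 1.06 SE, adjusted p = 0.576). *Cxcl10*, an interferon-induced T cell attractant, had 1.29, 13.2, 4.11 and 6.15 against 2.88, 1.83, 0.461 and 1.03 CPM (log2FC -1.93 ± 0.73 SE, adjusted p = 0.114). *Cxcl2* and *Cxcl3* did not pass either, with log2FCs of -1.28 ± 0.75 and 1.78 ± 0.82 (SE). These 4 genes were named after their values were seen.

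Many of these genes share their place in the genome with another gene. Of the 297 genes, 79 have an exon that overlaps an exon of another row (17 on the same strand and 67 on the opposite strand), and 7 of these passed (8.86%), against 15 of the other 218 (6.88%). In all, 69 lie within the span of another gene, of which 6 passed (8.70%, beside 12.4% of all genes tested), and the host row of *Kcna3* (*Gm27008*) had group means of at most 0.0574 CPM, while that of *Ndn* (*Gm32061*) was at 0 in both groups. On the X chromosome 0 of 14 tested genes passed in edgeR, against 16.8% of 428 multi-exon genes there and 12.4% of all genes tested. In DESeq2 3 of the 14 passed (21.4%), against 24.5% of these multi-exon genes and 21% of all genes tested. At an unadjusted p under 0.05 the count was 4 of the 14 (28.6%), against 36.7% and 29.6%. Of the 22 called genes, 10 passed in each of the 8 fits that left out 1 tumor, and 9 of them, among which were *Foxq1*, *Cebpa*, *Exoc8*, *Kcna3*, *Kctd12*, *Rgs1*, *Ndn* and *Hcar2*, passed in every fit that tested them. The other 12 lost the call in some of these 8 fits. *Mt1*, *H1f0* and *Pcdhb16* lost it in 6, *Rpl22l1*, *2310039H08Rik*, *Ch25h* and *Fibin* in 5, *Sox12*, *Gm10282* and *Rap2b* in 4, and *A530084C06Rik* and *Thbd* in 3. All 12 lost it without *K-Ctrl* replicate 3 and all but *A530084C06Rik* without *K-Setd2KO* replicate 3, and their highest adjusted p over all fits lay between 0.0636 (*Rpl22l1*) and 0.154 (*Thbd*). With a term for sex, 16 of the 22 passed, and *Thbd*, *Fibin*, *Rap2b*, *Gm10282*, *Pcdhb16* and *A530084C06Rik* did not. With a replicate block 12 of the 22 passed, and *Pcdhb19* (edgeR adjusted p = 0.0539) was among those that did not. Without a filter 16 of the 22 passed, and in limma voom 20.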

How the data were processed

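For each of the 8 tumors the authors deposited a column of unnormalized counts for every gene, and 0 columns were left unused. The submitters' processing notes name STAR 2.5.2b, featureCounts 1.5.0-p1 and GRCm38.p4. The annotation release, the strand setting and the treatment of reads that fit several genes are not given in the sources used here, and the last affects copies most. The design text describes frozen tumors and the extraction text cell lines, and markers of leukocytes and endothelium were present in all 8 libraries. A stranded poly(A) kit was used.

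Gene types, transcripts and GC content came from GENCODE M21, in which 99.3% of the 48709 identifiers were found. Genes with at least 10 counts in at least 4 of the 8 columns were tested in R 4.3.3 with edgeR 4.0.16 (TMM factors, robust quasi-likelihood fit, genotype alone, Benjamini-Hochberg adjustment over all 15115 genes, threshold 0.05). SE was derived from the log2 fold change and the F statistic. DESeq2 1.42.0 and limma voom (limma 3.58.1) were alternatives. The precision of the tests rests on 4 tumors per group (common biological coefficient of variation 0.34), and limits of 3 counts cover counting error only. Shared sequence was the percent of 50-base stretches of a gene's transcripts found in transcripts of genes at other loci, on either strand. Promoter sequences are from RefSeq.

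Named genes are *Setd2*, in each direction up to 8 called genes by p (giving 5 higher and 8 lower) that changed over 2-fold with no overlap in CPM between the groups, the 5 genes of the highest mean CPM, the gene with the smallest p of each listed family with 3 or more tested genes, and the 3 called genes with the smallest p within the span of another gene. Other genes, including the called genes *Exoc8*, *Pcdhb16*, *Ch25h*, *Fibin* and *H1f0*, were named after their values were seen. Some items are not reported here, 1 called gene that the rule names among them. The genes, families and marker lists were chosen with earlier results of these data known. The replicate numbers were not treated as pairs in the main fit. The deviations of same-numbered tumors correlated at -0.073, -0.024, 0.19 and -0.0034, and only the tumors numbered 3 were each other's best match. Low correlations cannot exclude a shared mouse or batch, so whether the numbers pair the tumors is not known.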

Additional observations from a re-analysis of the deposited data

Results flagged for a closer look

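In 4 of 70 groups of 4 values examined, 1 tumor stood apart from the other 3 by more than Dixon's 95% limit for its gap as a share of the range, and chance alone gives about 1 in 20 groups, or 3.5. *Sox12* was high in *K-Ctrl* replicate 4 (23.4 CPM), still below every *K-Setd2KO* tumor. *Pcbp1* was low in *K-Ctrl* replicate 2 (159 CPM). *Hcar2* (2.37 CPM) and *Rap2b* (6.57 CPM) were low in *K-Setd2KO* replicate 2, in the direction of the difference between the groups.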

How the results depend on the processing

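The fit as reported called 1875 genes. Leaving out 1 tumor gave 759 to 2004 called genes, 4 to 18 single-exon genes higher and 6 to 19 lower, a median log2 fold change of 0.0104 to 0.099 and a difference from multi-exon genes of 0.01 to 0.08. The called genes numbered 929, 1100 and 759 without *K-Ctrl* replicates 1, 2 and 3 (4 single-exon genes higher each, and 6 lower without replicate 3) and 1000 without *K-Setd2KO* replicate 3 (5 higher, 6 lower), while without *K-Setd2KO* replicate 2 18 were higher and 19 lower. DESeq2 called 3171 genes, with 27 and 29 of the single-exon genes. The sex term left 1241 genes. With 10 counts in all 8 columns, 6 single-exon genes were lower, with a median of 0.12 and a difference of 0.11. The median and difference were -0.0581 and -0.0485 without a filter and -0.0173 and -0.0368 after a length and GC trend was removed. The median was 0.0102 in limma voom and 0.0040 in the fit with a replicate block. That fit called 1325 genes (8 and 8 single-exon), although whether the numbers pair the tumors is not known. Only number 3 correlated best with its own. Leaving out members that overlap another gene, or keeping intronless genes only, left 6 higher, and the latter turned the difference in share of counts to -0.014 percentage points from 0.031. The cause of these moves was not tested. *Setd2* turned to 0.0938 with the length and GC trend removed, and *Purb* to 0.0809 there, while leaving out 1 tumor moved *Purb* between -0.148 and 0.0546, above 0 at 0.0285 without *K-Ctrl* replicate 1 and 0.0088 and 0.0546 without *K-Setd2KO* replicates 2 and 3; neither gene passed. Of the other values, 89 kept their side and stayed within 1.5 times or the spread between tumors. Restricting to intronless genes, leaving out genes with shared stretches and leaving out chromosome 6 were chosen after seeing the data. The alternative that leaves out near-identical proteins was not run, since protein sequences were not used here, and merging intervals gave the same genes. Precision was lowest for genes under 2 CPM, with a median SE of 0.49 for single-exon and 0.61 for multi-exon genes.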
